A study of Mus musculus with 12 samples.

Results

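Long noncoding RNAs (lncRNAs) that are annotated against, inside or next to another gene were followed in livers of 2 mouse models of obesity. The set holds every transcript that Ensembl classes as antisense, as a bidirectional promoter lncRNA, or as sense RNA within or around a host gene (sense intronic, sense overlapping), and that the authors' comparison had accepted for testing, without the loci Egfros, Airn, Kcnq1ot1 and Epb41l4aos. In the table of HFD against CD, 570 of 2580 transcripts of these biotypes qualified, or 22.1%, and they belong to 530 genes among 62486 listed transcripts. In the table of db against misty, 543 of 2584 qualified, or 21.01%, from 507 genes among 62945 listed transcripts. Together they make 657 genes, of which 380 are in both tables. By biotype 630 genes are antisense, 13 sense intronic, 13 bidirectional promoter lncRNAs and 1, Gm15751, sense overlapping. The members were chosen by annotation and not by their response to obesity.

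The dietary model set mice on a high-fat diet (HFD, 54 kJ% fat) against mice on a control diet (CD, 11 kJ% fat), all labelled C57BL/6 and wild type. The genetic model set db mice, labelled Leprdb, against misty mice, all labelled C57BL/6 too and on the diet with 11 kJ% fat. The db allele removes the long form of the leptin receptor, and misty mice served as the lean controls of db mice. The labels give 3 livers per group and an age of 36 weeks for all 12 mice. The study's methods describe male mice, and for the db and misty groups they give a younger age, more animals per genotype and the BKS background, so these points are uncertain. Libraries were made from RNA depleted of ribosomal RNA and keep the strand of the transcript. By the methods, the libraries of the 2 models were prepared at different centres, and the 2 models were therefore compared only through the ratio within each. Each deposited table holds 1 FPKM per group, which is a read density per transcript length and per library, pooled over the livers by the authors. The depth per liver is unknown, the spread between livers cannot be computed, and no difference below could be tested against it. Transcripts called 2-fold higher or lower are those whose log2 ratio of (FPKM + 0.1), obese over control, was at least 1 or at most -1, a fixed size and not a test.

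An antisense lncRNA is read from the DNA strand opposite to a coding gene, and it may start inside that gene, beyond its end or next to its promoter. A bidirectional promoter lncRNA starts close to the start of a coding gene and runs away from it. Sense intronic and sense overlapping lncRNAs lie on the same strand as their host gene. RNAs of these kinds are known to act in some cases on the gene they overlap, through chromatin, through the passage of the polymerase or by pairing with the mRNA, and in many cases no function is known. Most genes named here carry only a clone name, so each is described by its coding neighbour.

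By gene spans on GRCm38, 356 of the 657 genes lie wholly inside a coding gene of the other strand. In 88 the ends of the 2 genes overlap (tail-to-tail), in 85 the 2 starts lie within 1000 bases of each other with overlap (head-to-head), and in 34 the lncRNA runs over the start of the coding gene from farther away. A further 21 span a whole coding gene, 29 start within 1000 bases of a coding start on the other strand without overlap, 14 overlap a coding gene on their own strand only, and 30 have no coding gene on the other strand.

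One property of the tables touches every result for overlapping genes. On all 20 chromosomes checked, the authors' transcript numbers rise in 3 runs of ascending position. Untested mRNA entries lie in the run of their annotated strand in 94.5% of cases in the HFD table and 94.9% in the db table, so the first runs follow the strands. Tested mRNA entries do so in only 41.5% and 41.7%, and tested intergenic lncRNA (lincRNA) entries in 55.7% and 58.7%. Of the tested members, 84.4% and 85.1% lie in the run of their own strand. For an entry in the other run, the assembled transcript and the annotated name point to different strands. The strand setting of the authors' quantification is not given in the sources used here. For such entries the reads of a lncRNA and of its coding neighbour therefore cannot be told apart. Whether they were separated for entries in their own run is unknown too. In misty, Gm11175 was at 33.7 FPKM and Jund opposite it at 0.463, both in their own run. With both entries in their own run, the control level of the lncRNA was the higher in 80 of 183 pairs with HFD. In db it was the higher in 64 of 161. Several defining hepatocyte genes also are listed far below their usual level in liver, which bears on the coding side of each pair. The albumin gene Alb, looked up without regard to test status, is listed at 0 in HFD and in db. Ttr, the transthyretin gene, is at 0.664 FPKM in misty and 3.15 FPKM in db against 3053 FPKM in CD. The part of this in the results was not tested, and values are given below with and without entries in the other run.

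**Figure D1:**
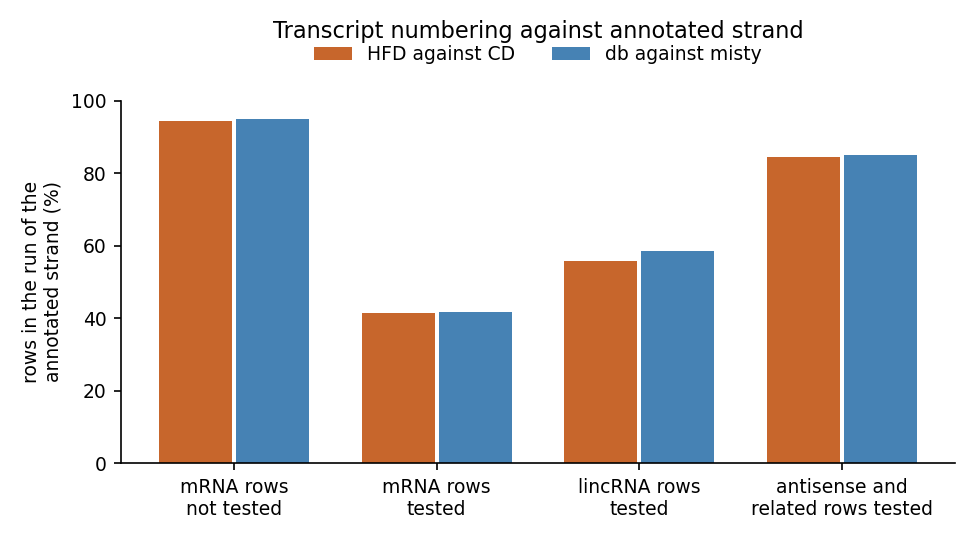
Share of table entries whose transcript number lies in the run of their annotated strand (vertical axis, percent), for 4 classes of entries and both tables. Untested mRNA entries reach 94.5% and 94.9%, tested mRNA entries 41.5% and 41.7%, and the tested antisense and related lncRNAs 84.4% and 85.1%.

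The most abundant member shows what an overlap means at the level of sequence. Gm10680 on chromosome 9 (minus strand, 46242621 to 46243529) meets the apolipoprotein gene Apoa4 tail-to-tail, and 632 of its 702 transcript bases lie opposite Apoa4 exons. The stretch of 60 coding bases at chr9:46242851-46242910, from the GENCODE M21 transcripts on GRCm38, is shown because a read from it differs between the genes only by its strand.
Apoa4, plus strand: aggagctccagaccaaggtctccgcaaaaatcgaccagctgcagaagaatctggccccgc
Gm10680, minus strand: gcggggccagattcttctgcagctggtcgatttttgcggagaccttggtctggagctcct
Each line is the reverse complement of the other.

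Promoters from RefSeq (GRCm38.p6), from 250 bases before to 50 after the start, could be assigned by symbol to 174 of the 657 genes, with a start within 500 bases of the annotated gene start. At 26.5% of the members, a statement on the promoters of the set as a whole is void, and the values describe those 174. The number of CG dinucleotides differed with the arrangement. Its median was 29 for the 17 promoters of lncRNAs that diverge from a coding start without overlap, 23.5 for 24 head-to-head ones and 5 for 65 lncRNAs inside a coding gene, against 7 over 27025 genes of the table. For 29 tail-to-tail promoters the median was 14. The 4 promoters below are single examples and not typical of their classes, with CG in capitals in the first 3. None is head-to-head, and the first lies above the upper quartile of its class, which is 35.
2310010J17Rik, chr7:90129887-90130186, minus strand, diverging from Picalm: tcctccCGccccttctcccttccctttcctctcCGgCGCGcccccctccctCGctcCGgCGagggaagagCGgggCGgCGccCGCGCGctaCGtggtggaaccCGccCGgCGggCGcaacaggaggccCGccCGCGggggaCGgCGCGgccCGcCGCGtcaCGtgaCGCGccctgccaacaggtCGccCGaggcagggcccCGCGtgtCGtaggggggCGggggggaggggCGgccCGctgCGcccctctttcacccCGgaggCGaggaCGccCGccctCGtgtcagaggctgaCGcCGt
9530034E10Rik, chr4:117974784-117975083, plus strand, inside St3gal3: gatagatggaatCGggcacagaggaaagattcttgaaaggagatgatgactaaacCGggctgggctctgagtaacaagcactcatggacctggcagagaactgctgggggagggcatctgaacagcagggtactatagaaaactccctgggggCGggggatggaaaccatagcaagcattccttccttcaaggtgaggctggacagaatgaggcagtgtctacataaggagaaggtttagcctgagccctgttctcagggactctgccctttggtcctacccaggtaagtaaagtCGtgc
Gm28836, chr1:21271636-21271935, minus strand, tail-to-tail with Gsta3: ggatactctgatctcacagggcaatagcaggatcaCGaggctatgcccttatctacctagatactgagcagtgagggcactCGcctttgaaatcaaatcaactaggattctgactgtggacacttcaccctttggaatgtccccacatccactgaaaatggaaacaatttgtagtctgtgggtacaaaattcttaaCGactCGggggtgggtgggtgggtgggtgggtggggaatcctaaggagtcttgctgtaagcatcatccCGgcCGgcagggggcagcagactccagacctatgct
Gm15318, chr17:31152502-31152801, plus strand, tail-to-tail with Tff1, with its TATAAA and CCAAT matches in capitals: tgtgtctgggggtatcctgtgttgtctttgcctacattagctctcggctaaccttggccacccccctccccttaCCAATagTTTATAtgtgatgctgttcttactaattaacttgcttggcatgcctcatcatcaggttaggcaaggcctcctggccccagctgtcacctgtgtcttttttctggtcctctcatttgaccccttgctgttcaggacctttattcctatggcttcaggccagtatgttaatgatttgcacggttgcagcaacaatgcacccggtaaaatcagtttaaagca
The first holds 46 CG, the second 4 and the third 6. Searched on both strands, TATAAA is in 11 of the 174 promoters (6.32%, all genes 14.2%) and CCAAT in 54 (31.0%, all genes 37.9%), and a match of one may share a base with the other. The core of the element bound by small MAF factors and their CNC partners, TGACNNNGC, is in 30 (17.2%, all genes 12.5%), among them 2310010J17Rik. A match is a run of letters and not a site.

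The typical member was low. The median in the control group was 0.574 FPKM in CD and 0.583 FPKM in misty, against 0.859 and 0.866 FPKM for tested mRNA transcripts. A value in both groups was given for 564 transcripts (525 genes) in the HFD table and 538 (503 genes) in the db table. A few entries stood far above the rest. Gm10680, opposite Apoa4, an apolipoprotein of chylomicrons and high-density lipoprotein, went from 1098 FPKM in CD to 1747 FPKM in HFD, a log2 ratio of 0.67. In the other table it was at 1235 FPKM in misty and 432 FPKM in db, a log2 ratio of -1.51. Apoa4 itself went from 63.0 to 117.7 FPKM with HFD (log2 ratio 0.90) and was not tested in the db table, where it is listed at 0.125 FPKM in misty and 0.108 FPKM in db. The lncRNA entry of this locus thus exceeded that of the coding gene in all 4 groups.

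Other abundant entries also lay beside coding genes listed far lower. Gm37401 starts 630 bases from Gpx1, the glutathione peroxidase gene, and was at 81.2 FPKM in CD and 103.6 in HFD, while Gpx1 was listed at 0.252 and 0.0684 FPKM. In the db table Gm37401 was at 28.2 FPKM in misty and 28.1 in db. Sardhos lies inside Sardh, which encodes the mitochondrial sarcosine dehydrogenase, and was at 53.1 FPKM in CD and 62.1 in HFD. The same RNA was at 27.6 FPKM in misty and 108.5 FPKM in db, a log2 ratio of 1.97, the largest increase among members over 10 FPKM in that table. Sardh was at 0.665 FPKM in misty and 1.15 FPKM in db (log2 ratio 0.71) and was not tested in the HFD table. 1700045H11Rik, which runs over the start of Errfi1, an inhibitor of the epidermal growth factor receptor, was at 74.9 FPKM in CD and 62.1 in HFD. Errfi1 was at 0.326 and 0.452 FPKM. Frmd8os, tail-to-tail with Frmd8, was at 45.0 FPKM in CD and 29.5 in HFD, and at 70.9 in misty and 58.5 in db.

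Several other entries of high level differed by less than 2-fold in the table quoted. 4930500F10Rik lies head-to-head with Alas1, the rate-limiting enzyme of heme synthesis, and was at 19.9 FPKM in CD and 16.6 in HFD. Gm44710, beside the mRNA decay factor Zfp36 and the Mediator subunit Med29, was at 22.6 and 25.6 FPKM, and Wbscr25, tail-to-tail with the tight junction gene Cldn3, at 22.6 and 13.5 FPKM. Gm26759, opposite Irf2bp2, was at 14.8 FPKM in CD and 14.0 in HFD, and Gm37335, inside the heparan sulfate sulfotransferase gene Hs6st1, at 12.3 and 15.3 FPKM. In the db table Gm11175, opposite the AP-1 factor gene Jund, was at 33.7 FPKM in misty and 25.9 in db, Gm20659, opposite the phosphatase gene Dusp3, at 26.7 and 22.0, and Gm16567, opposite the complement protease gene C1s1, at 47.2 and 46.3. RP24-285L8.3, inside the mitophagy gene Bnip3, went from 16.8 to 32.8 FPKM (log2 ratio 0.96).

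**Figure D2:**
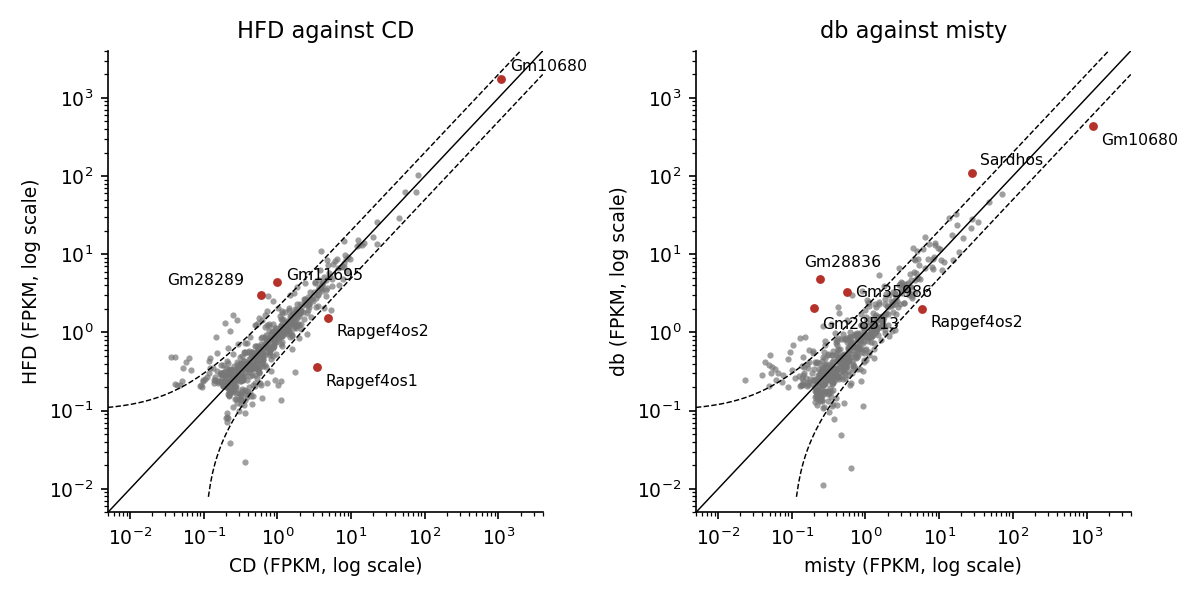
Pooled FPKM of each member transcript in the obese group (vertical, log scale) against its control group (horizontal, log scale), with HFD against CD on the left and db against misty on the right. Each point is 1 transcript, the solid line marks equal values, the dashed lines mark 2-fold on the (FPKM + 0.1) scale, and named genes are red. Gm10680 lies alone near 1000 FPKM in both panels, above the line of equality at the left and below it at the right.

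Between HFD and CD, 34 of the 564 transcripts were 2-fold or more higher, or 6.03%, where all tested transcripts gave 6.43%. A further 26 were 2-fold or more lower, or 4.61%, where all tested transcripts gave 3.74%. The median log2 ratio was -0.06 for the members, -0.03 for all tested transcripts and -0.01 for mRNA transcripts. Both shares lay near those of the whole table. For mRNA transcripts alone, 5.82% were higher and 2.31% lower, so the share of lower members exceeded that of mRNAs. That is not particular to these biotypes, since 6.55% of tested lincRNA transcripts were higher and 5.90% lower. Without the 89 entries in the other run, 28 were higher and 23 lower of 475. With a pseudocount of 1 FPKM only 5 were higher and 4 lower, since most of the called transcripts are at low levels.

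The 6 largest increases with HFD, among genes whose higher group had at least 0.5 FPKM, lay opposite genes of varied roles. Gm11724, inside the transmembrane channel-like gene Tmc8, went from 0.252 FPKM in CD to 1.69 FPKM in HFD, a log2 ratio of 2.34. 3300002A11Rik, inside the forkhead repressor gene Foxn3, went from 0.197 to 1.32 FPKM (2.26), and Gm28289, tail-to-tail with the zinc finger gene Hivep2, from 0.603 to 3.0 FPKM (2.14). Gm11695, head-to-head with the monocarboxylate transporter gene Slc16a5, went from 0.999 to 4.36 FPKM (2.02). Gm29585, opposite the lipid transfer protein gene Esyt1, went from 0.280 to 1.43 FPKM (2.01), and Gm15523, inside the ubiquitin ligase gene Asb2, from 0.146 to 0.880 FPKM (1.99). Their coding neighbours varied: Foxn3 had a log2 ratio of -0.08, Esyt1 of -0.42, Asb2 of 0.83 and Slc16a5 of 1.19. Tmc8 and Hivep2 were not tested.

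The decreases with HFD were led by antisense RNAs of Rapgef4, which encodes a cAMP-activated exchange factor for Rap (Epac2). Rapgef4os1 went from 3.45 to 0.358 FPKM, a log2 ratio of -2.96, and its second tested transcript from 1.14 to 0.135 FPKM (-2.39), but both entries lie in the run of the Rapgef4 strand. Rapgef4os2, in the run of its own strand, went from 4.88 to 1.55 FPKM (-1.59). Rapgef4os3 went from 5.42 to 1.97 FPKM (-1.42) and was added after its value was seen. Rapgef4 itself was not tested and is listed at 0.176 FPKM in CD and 0.165 in HFD. The other large decreases belonged to Gm26740, Gm17041 and Gm16277, which are described with their coding genes below, and to 2900009J06Rik, which ends opposite Acmsd, an enzyme of tryptophan breakdown, and went from 0.615 to 0.145 FPKM (-1.55). Acmsd had a log2 ratio of -0.42.

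Between db and misty, 46 of 538 transcripts were 2-fold or more higher, or 8.55%, where all tested transcripts gave 7.49%. There were 24 that were 2-fold or more lower, or 4.46%, where all tested transcripts gave 6.44%. The median log2 ratio was -0.05, against -0.04 for all tested transcripts and -0.02 for mRNAs. Without the 81 entries in the other run, 36 were higher and 19 lower of 457, and with a pseudocount of 1 FPKM 12 were higher and 2 lower. The shares of the 538 transcripts, too, were close to those of the table. For mRNA transcripts alone, 6.31% were higher and 4.16% lower, and for lincRNA transcripts 9.13% and 9.38%.

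The 3 largest increases in db livers were those of Gm28836, Gm28513 and Gm35986. Gm28836, which overlaps the glutathione transferase gene Gsta3 at its end, went from 0.244 FPKM in misty to 4.78 FPKM in db, a log2 ratio of 3.83. Gm28513, tail-to-tail with Rgs16, a brake on G protein signals, went from 0.201 to 2.04 FPKM (2.83). Gm35986, head-to-head with the fatty acid elongase gene Elovl6, went from 0.566 to 3.24 FPKM (2.33). Gm28289 near Hivep2 went from 0.431 to 2.13 FPKM (2.07), 5330438I03Rik, inside Ildr2, from 0.655 to 3.01 FPKM (2.04), and Gm15756, with no coding gene on the other strand, from 0.131 to 0.849 FPKM (2.04). For the first 3 of these the coding gene was also over 2-fold higher, whereas Hivep2 and Ildr2 were not tested in this table.

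The largest decreases in db livers included the most abundant member, Gm10680, at a log2 ratio of -1.51. 2810442N19Rik, inside the dynamin gene Dnm3, went from 0.647 to 0.0187 FPKM (-2.65), an entry in the other run. Gm12264, inside Mprip, went from 0.921 to 0.114 FPKM (-2.26), RP23-479K9.3, opposite the zinc finger gene Zfp703, from 0.866 to 0.240 FPKM (-1.51), and AU040972, inside the Ras regulator gene Nf1, from 0.515 to 0.124 FPKM (-1.46). Rapgef4os2 went from 5.88 to 2.02 FPKM (-1.50), close to its ratio under HFD. Nf1, by an entry in the other run, was at 2.26 FPKM in misty and 2.19 in db, and Dnm3, Mprip and Zfp703 were not tested.

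Across the 376 genes with a value in both tables, the log2 ratios of the 2 models had Pearson's r = 0.43 and Spearman's rho = 0.33, a description over genes that share the processing but no livers. For 7896 mRNA genes r was 0.38 and rho 0.30. Of the 376 genes, 223 had ratios of the same sign (59.3%, mRNA genes 61.1%). In both models 8 of the 376 genes were 2-fold or more higher, 3 were 2-fold or more lower and 1 was opposite. For the 7896 mRNA genes these counts were 124, 66 and 30. As shares of their sets, the counts of the members lay near those of the mRNA genes.

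Of the members past 2-fold in both models, 6 of the 8 higher and all 3 lower reached 0.5 FPKM in the higher group of each table. Gm28513, next to Rgs16, went from 0.757 FPKM in CD to 2.91 in HFD (log2 ratio 1.81) beside 2.83 in db. Gm28289 had log2 ratios of 2.14 and 2.07. Gm11695, next to Slc16a5, had 2.02 with HFD and 1.85 in db, where it went from 0.264 to 1.21 FPKM. RP23-98C9.5, head-to-head with the metallothionein gene Mt2, went from 0.227 FPKM in CD to 1.04 in HFD (1.80) and from 0.343 FPKM in misty to 1.28 in db (1.64). Mt2 was at 1.26 FPKM in CD and 0.965 in HFD and was not tested in the other table. Gm28501, inside the kinase gene Nek7, went from 0.671 to 1.66 FPKM with HFD (1.19) and from 0.149 to 0.880 FPKM in db (1.98). Gm15318, whose promoter is printed above, went from 0.567 to 1.54 FPKM (1.30) and from 0.0952 to 0.563 FPKM (1.76).

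The 3 RNAs lower in both models all lie inside coding genes. Rapgef4os2 had log2 ratios of -1.59 and -1.50. 9530034E10Rik, inside the sialyltransferase gene St3gal3, went from 1.97 FPKM in CD to 0.847 in HFD (-1.13) and from 1.29 FPKM in misty to 0.466 in db (-1.30). AI507597, opposite Tmem82, went from 1.56 to 0.616 FPKM (-1.21) and from 2.07 to 0.899 FPKM (-1.12). St3gal3 was tested only in the db table, with a log2 ratio of -0.74 for an entry in the other run. The 1 gene with opposite ratios was Gm43573, which runs over the start of the adhesion receptor gene Adgrl2. It went from 0.584 FPKM in CD to 0.226 in HFD (-1.07) and from 0.280 FPKM in misty to 0.697 in db (1.07), and Adgrl2 was not tested.

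**Figure D3:**
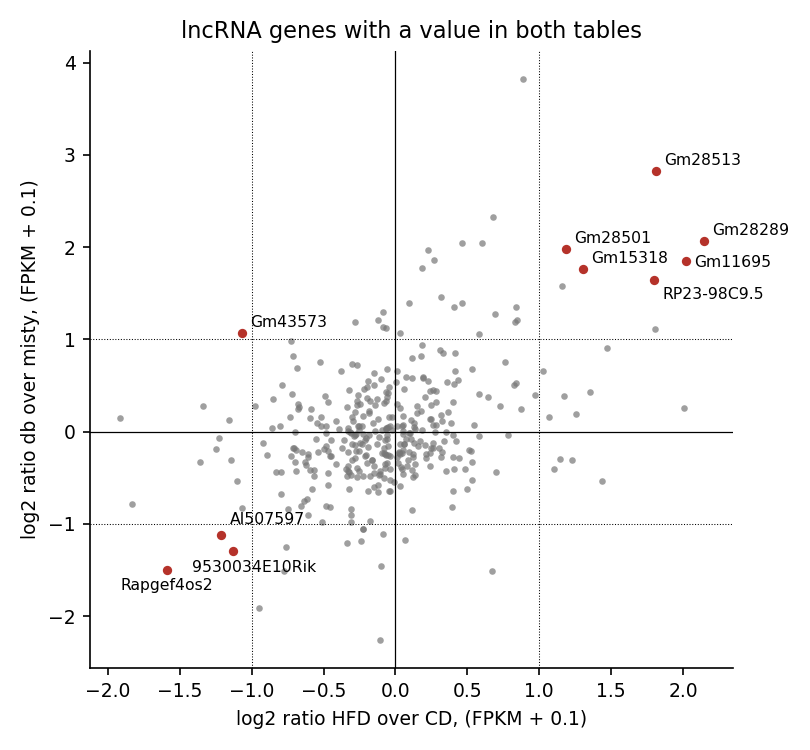
Log2 ratio of db over misty (vertical) against log2 ratio of HFD over CD (horizontal), both of FPKM + 0.1, for the 376 lncRNA genes with a value in both tables. Dotted lines mark 2-fold, and the 10 genes past 2-fold in both models at 0.5 FPKM or more are red: 6 at the upper right, 3 at the lower left and Gm43573 at the upper left.

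Set beside the coding gene on the other strand, the ratio of the lncRNA and that of its partner more often than not had the same sign. With HFD, 268 pairs had a value on both sides, and their log2 ratios had Pearson's r = 0.39 and Spearman's rho = 0.44, with 184 pairs of the same sign (68.7%). In db, 258 pairs had r = 0.44 and rho = 0.37, with 158 of the same sign (61.2%). For the same lncRNA genes beside the nearest coding gene that does not overlap, the same sign was seen in 50.4% with HFD. In db it was seen in 55.0%. The points share libraries and normalization, and some genes enter several pairs. With the nearest coding gene that does not overlap in place of the partner, r was 0.17 over the 260 lncRNA genes of the HFD pairs. In db it was 0.12 over the 240 genes of the pairs. Over all lncRNA genes with a ratio, r was 0.11 over 525 and 0.092 over 503. With both entries in the run of their own strand, r was 0.35 over 183 pairs and 0.43 over 161.

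By arrangement, again as a description without a test, r was highest tail-to-tail in both tables. Tail-to-tail pairs had r = 0.61 over 49 pairs with HFD and 0.74 over 49 pairs in db, head-to-head pairs 0.54 over 34 and 0.27 over 32, and lncRNAs inside a coding gene 0.32 over 157 and 0.34 over 140. Spanning lncRNAs had 0.15 over 13 and 0.12 over 19. The rho of tail-to-tail pairs was 0.55 with HFD and 0.53 in db. Where exons overlap on the 2 strands, r was 0.46 over 169 pairs with HFD and 0.42 over 154 in db. Where they do not, r was 0.24 over 99 and 0.47 over 104. By rho the pairs with exon overlap were the higher in both tables. It was 0.47 with HFD and 0.41 in db with overlap, and 0.37 and 0.32 without. In the control group the partner's FPKM was a median 1.85 times that of the lncRNA in both tables. The lncRNA was the higher of the pair in 101 of 268 and 94 of 258 pairs.

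**Figure D4:**
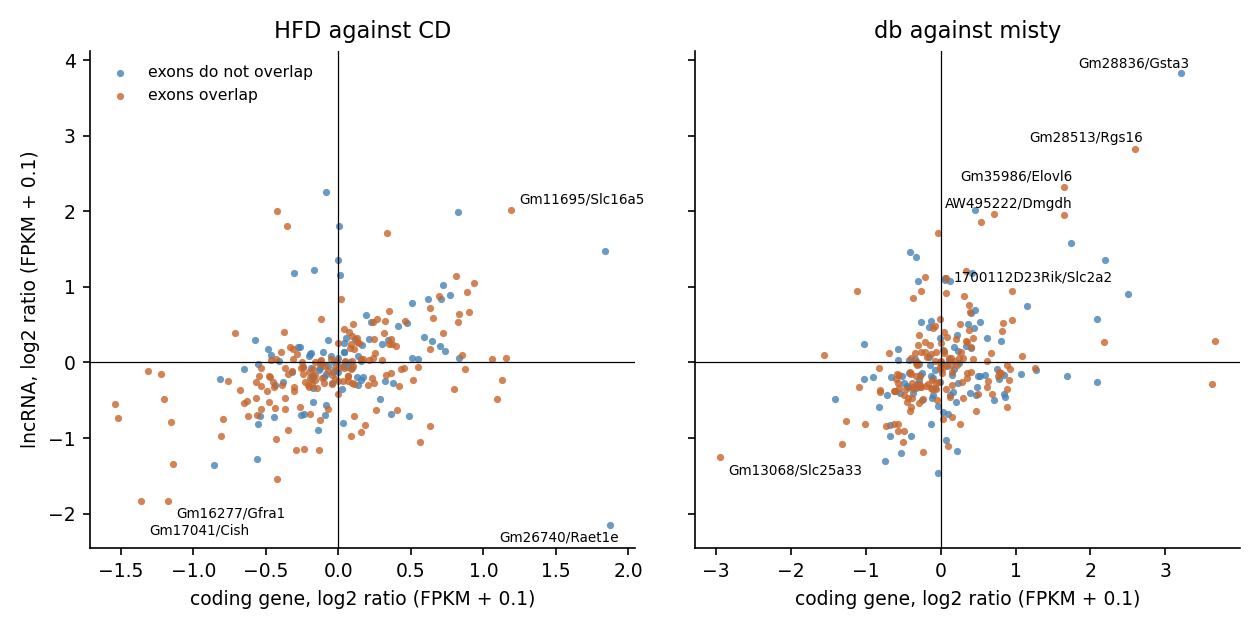
Log2 ratio of the lncRNA (vertical) against that of the coding gene it overlaps on the other strand (horizontal), both of FPKM + 0.1, for 268 pairs of HFD against CD (left) and 258 pairs of db against misty (right). Orange pairs share exonic bases and blue pairs do not. Most labelled pairs lie at the upper right or lower left, and Gm26740 with Raet1e lies alone at the lower right.

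Pairs in which both sides passed 2-fold numbered 6 with HFD, 5 of them of the same sign, and 8 in db, all 8 of the same sign. At the minimum levels used for naming (0.5 FPKM for the lncRNA and 1 FPKM for the coding gene), 5 and 7 of them remain. The first of those described concerns glucose. 1700112D23Rik ends within Slc2a2, the gene of the glucose transporter GLUT2. It went from 0.170 FPKM in misty to 0.591 in db (1.35), and Slc2a2 from 2.18 to 10.3 FPKM (2.19). With HFD the more abundant transcript of 1700112D23Rik went from 4.71 to 8.50 FPKM (0.84) and Slc2a2 from 0.340 to 0.576 FPKM (0.62). The db entry of Slc2a2 lies in the other run.

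The second group concerns lipid synthesis and detoxification. Gm35986, on chromosome 3 (minus strand, 129527467 to 129532388), starts inside Elovl6 close to its start, and the pair shares 34 exonic bases. Elovl6 went from 1.32 FPKM in misty to 4.36 in db (1.65) beside the 2.33 of Gm35986. With HFD, Gm35986 went from 0.732 to 1.23 FPKM (0.68) and Elovl6 from 1.31 to 1.69 FPKM (0.35). Gsta3 went from 1.51 FPKM in misty to 14.8 in db (3.21) beside the 3.83 of Gm28836. With HFD, Gm28836 went from 7.98 to 14.9 FPKM (0.89) and Gsta3 from 12.7 to 21.7 FPKM (0.77). Glutathione transferase genes have close copies, so the share of reads given to Gsta3 is uncertain. Both pairs had the same sign in both models, and the Elovl6 entries lie in the other run.

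The third group holds genes of one-carbon metabolism and of the breakdown of choline and betaine to glycine. AW495222 lies inside Dmgdh, the dimethylglycine dehydrogenase gene, and went from 0.103 FPKM in misty to 0.688 in db (1.96), while Dmgdh went from 3.99 to 12.7 FPKM (1.65). In the HFD table Dmgdh had a ratio of the opposite sign, at 145.9 FPKM in CD and 117.5 in HFD (-0.31), and AW495222 was not tested. Gm15622, inside the betaine-homocysteine methyltransferase gene Bhmt, went from 13.8 to 28.8 FPKM in db (1.06) and from 4.86 to 7.32 FPKM with HFD (0.58). Bhmt was at 146.2 FPKM in CD and 176.1 in HFD (0.27) and was not tested in the db table, where it is listed next to 0. RP23-290O4.2, head-to-head with the adenosylhomocysteinase gene Ahcy, went from 17.3 to 23.8 FPKM in db (0.46), and Ahcy from 358.1 to 486.0 FPKM (0.44). These genes were grouped after their values were seen, and the pair of AW495222 is the only one of the 3 in which both sides passed 2-fold.

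The fourth group holds signalling genes. Rgs16 went from 1.66 FPKM in misty to 10.5 in db (2.59) beside the 2.83 of Gm28513. Gm17041, inside Cish, a feedback inhibitor of cytokine and growth hormone signals, went from 1.02 FPKM in CD to 0.212 in HFD (-1.84), and Cish from 1.10 to 0.368 FPKM (-1.36). All 479 bases of Gm17041 lie opposite Cish exons. Gm16277 overlaps the end of Gfra1, a co-receptor of the GDNF family, and went from 1.11 to 0.240 FPKM with HFD (-1.83), while Gfra1 went from 4.83 to 2.08 FPKM (-1.18). In db livers Gm16277 went from 18.4 to 10.7 FPKM (-0.78) and Gfra1 from 1.29 to 0.480 FPKM (-1.27). The db entry of Gfra1 lies in the other run. Gfra1 was the higher of the pair in the HFD table, and Gm16277 in the db table.

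The fifth group holds the transporter genes Slc16a5 and Slc25a33 and, apart from these, Rtp3. Slc16a5 went from 0.410 FPKM in CD to 1.06 in HFD (1.19) beside the 2.02 of Gm11695, and from 0.625 to 0.953 FPKM in db (0.54). Gm13068, inside the mitochondrial pyrimidine nucleotide carrier gene Slc25a33, went from 0.916 FPKM in misty to 0.326 in db (-1.26), and Slc25a33 from 3.06 to 0.310 FPKM (-2.95). 1700061E17Rik, inside Rtp3, a gene of a protein that helps chemosensory receptors reach the cell surface, went from 0.838 to 0.344 FPKM (-1.08), and Rtp3 from 2.71 to 1.03 FPKM (-1.32).

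The 1 pair in opposite directions concerns immunity. Gm26740 lies on chromosome 10 (minus strand, 22187013 to 22302835) inside Raet1e, a ligand of the NKG2D receptor of killer cells, and shares no exonic bases with it. The transcript of Gm26740 in its own run went from 1.75 FPKM in CD to 0.316 in HFD (-2.15), while Raet1e went from 0.704 to 2.85 FPKM (1.87). The 3 other tested transcripts of Gm26740 had log2 ratios of -0.10, 0.46 and 1.15, so the direction belongs to 1 transcript. Summed over its tested transcripts, Gm26740 had a log2 ratio of -0.21. Raet1 genes have close copies, and the share of reads given to Raet1e is uncertain.

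Some large ratios of a coding gene had no like value on the other strand. Of 16 pairs in the HFD table whose coding gene passed 2-fold, 13 had a lncRNA ratio of the same sign, and of 28 pairs in the db table, 19. The lipid droplet gene Fitm1 went from 0.879 FPKM in misty to 12.3 in db (3.66), and Gm15932 opposite it from 7.13 to 8.71 FPKM (0.29). Tmem135 went from 0.472 to 6.94 FPKM (3.62), and Gm44995 inside it from 0.956 to 0.771 FPKM (-0.28). These 2 pairs were chosen after their values were seen, as the largest coding ratios among the pairs.

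Bidirectional and diverging lncRNAs were few and mostly low. Of 11 tested bidirectional promoter transcripts in the HFD table, 1 was 2-fold or more higher and none lower. Of 9 in the db table, 1 was higher and none lower. All tested transcripts gave 6.43% higher and 3.74% lower with HFD, and 7.49% and 6.44% in db. So few entries cannot set the class apart from these shares. 2310010J17Rik, whose CG-rich promoter is printed above, went from 1.28 FPKM in CD to 1.85 in HFD (0.50) and from 0.521 in misty to 0.303 in db (-0.62). Picalm, the clathrin assembly gene it diverges from, went from 2.03 to 4.74 FPKM (1.19) and from 2.14 to 4.71 FPKM (1.10). Gm9939, starting next to the tankyrase gene Tnks, was at 3.09 FPKM in CD and 2.55 in HFD, and Gm16675, next to the interferon regulatory factor gene Irf2, at 1.01 and 0.965. RP23-93F3.4, head-to-head with the glycogen-targeting subunit gene Ppp1r3b, went from 2.86 FPKM in misty to 6.64 in db (1.19) and from 0.170 to 0.381 FPKM with HFD (0.83). Over all lncRNAs that diverge from a coding start without overlap, r with the coding gene was 0.02 over 17 pairs with HFD and -0.05 over 13 in db.

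Sense intronic and sense overlapping RNAs lie on the strand of their host, so reads of host and lncRNA cannot be told apart by strand. Of 9 tested sense intronic transcripts in the HFD table none was 2-fold higher and 1 was lower, and 2 of 10 in the db table were higher. The shares over all tested transcripts were 6.43% higher and 3.74% lower with HFD, and 7.49% and 6.44% in db. These entries, too, are too few to differ from such shares. Only 5 of 9 and 5 of 10 lie in the run of their own strand. Gm16014, within the NAD glycohydrolase gene Cd38, was at 0.760 FPKM in CD and 1.04 in HFD (0.40), and Cd38 at 3.25 and 4.56 FPKM (0.47). Gm20705, within the forkhead gene Foxp1, went from 1.29 FPKM in misty to 0.732 in db (-0.74), and Foxp1 from 1.21 to 0.685 FPKM (-0.74). Gm20500, within Shroom3, had a log2 ratio of 0.51 with HFD and Shroom3 of -0.47. The single sense overlapping RNA, Gm15751, went from 0.362 to 0.123 FPKM in db (-1.05).

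Some genes entered with several tested transcripts, up to 4 per gene in the HFD table and 5 in the db table. 5430402O13Rik, which starts 105 bases from the cytochrome c gene Cycs, had log2 ratios from -0.28 to 0.59 with HFD and from -0.81 to 0.91 in db, where its highest value was 0.417 FPKM. The 4 transcripts of Gm20324, inside the coregulator gene Tcf20, lay between 0.00 and 0.20 with HFD. 4732471J01Rik, which spans Lipe and Ceacam1, had log2 ratios from -0.81 to 0.69 in db. Transcripts of 1 gene share reads, and their ratios are not independent.

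Entries at or next to 0 (at most 0.001 FPKM) in 1 group gave no ratio. In the HFD table they numbered 6, all at or next to 0 in CD, and the highest HFD values among them were 3.0 FPKM for Gm11706 and 2.96 FPKM for Gm28063. In the db table they numbered 5, with Gm12195, Gm16068 and 1 transcript of Hnf4aos at 0 in misty and 1700120E14Rik and Gm14167 at or next to 0 in db. The other transcript of Hnf4aos, antisense to the hepatocyte nuclear factor gene Hnf4a, was at 10.3 FPKM in misty and 11.7 FPKM in db, an entry in the other run. Alb is listed at 0 in HFD and in db as well, and whether any entry at 0 is a failed estimate was not tested.

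Some markers of other liver cells differed between the groups of the dietary model. In HFD livers 5 of 7 tested macrophage markers were 2-fold or more higher than in CD, where all tested transcripts gave 6.43%. The summed level of the 7 was 38.9 FPKM in CD and 90.0 FPKM in HFD, mostly from Lyz2 (24.7 and 62.6 FPKM). Of the 5, Csf1r (0.00222 FPKM), Itgam (0.0596) and Gpnmb (0.0442) lay below the pseudocount in CD. Clec4f had a log2 ratio of -0.15. Of the lymphocyte markers 3 of 6 tested were higher (2.50 and 5.42 FPKM), with Cd3e at 0.0981 FPKM in CD. Cholangiocyte markers had 1 of 4 higher (6.79 and 18.8 FPKM), and endothelial and stellate markers 0 of 3 each. In db livers 0 of 5 tested macrophage markers were 2-fold higher and 1 was lower (27.2 FPKM in misty and 22.9 FPKM in db). The median log2 ratio of the tested hepatocyte markers was -0.70 with HFD and -0.62 in db, but their directions were mixed. With HFD 1 of 6 was 2-fold or more lower, and Serpina1c had a log2 ratio of 0.31. In db 2 of 7 were lower and 1 was higher, Ttr (2.09), and Cyp2e1 had 0.40. Cyp2e1 is listed at 2.81 FPKM in CD and 2631 FPKM in misty, so this list describes no common change of hepatocytes. The part of these cell types in the ratios of the lncRNAs was not tested. In pooled liver RNA fewer cells of a type and less RNA per cell cannot be told apart.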

How the data were processed

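Libraries that keep strand were made from the RNA of 12 mouse livers. As the methods state, the authors trimmed the reads, discarded ribosomal ones (Bowtie2 2.2.9) and mapped the rest to GRCm38 (STAR 2.6.0c). Transcript models came from Cufflinks 2.2.1, and Cuffdiff set the groups side by side. Expression is the authors' deposited FPKM, 1 pooled value per group. GC content, a percent the authors joined from Ensembl, was carried along and not analysed. The deposited tables also hold the authors' own fold changes, test statistics, p-values and q-values, none of which were used.

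Only transcripts with the authors' status OK were taken. Log2 ratios used a pseudocount of 0.1 FPKM, and values up to 0.001 FPKM counted as at or next to 0. A gene was represented by its tested transcript with the highest mean FPKM. Arrangements were taken from gene spans in the tables and exon overlap from GENCODE M21. Promoters came from a RefSeq table (GRCm38.p6). No replicate values exist in the tables, so no test was made, the depth per liver is unknown, and the functions were tested on simulated data. Python 3.11.15, pandas 2.3.3, numpy 2.4.6 and scipy 1.17.1 were used. The members, lists and rules were chosen with earlier results of these data known.

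Genes were named by rule: the 6 largest increases and decreases of at least 2-fold in each model, where the higher group had at least 0.5 FPKM; those past 2-fold in both models; the 10 most abundant per table; pairs with both sides past 2-fold, at 0.5 FPKM for the lncRNA and 1 FPKM for the coding gene; the 3 most abundant of each smaller biotype; and the 3 genes with the most tested transcripts. Genes named outside it are marked as such, and a pair that the rule selects is not reported here. Alternatives were other pseudocounts (0.01 and 1), a minimum of 0.5 FPKM, sums per gene, ratios centred on all tested transcripts, other partners and, added after seeing the data, only entries in the run of their own strand.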

Additional observations from a re-analysis of the deposited data

Results flagged for a closer look

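Gm43573, which runs over the start of Adgrl2, was 2-fold or more lower with HFD than with CD (log2 ratio -1.07) and 2-fold or more higher in db than in misty (1.07), the only gene of the set past 2-fold in opposite directions at 0.5 FPKM or more in both tables. The difference between the models was not tested, since each table holds 1 pooled value per group.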

How the results depend on the processing

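No paired analysis was possible because the tables hold 1 pooled value per group, and for the same reason no liver could be left out in turn. The alternative restricted to entries whose locus ends equal the annotated transcript was not run, since the locus column gives the span of a bundle. Of 54 alternative values for the counts, medians and correlations, 44 stayed within their limits (1.5 times for a count, 0.1 for a median or r) and 10 moved. A pseudocount of 0.01 gave 45 lower transcripts with HFD. A pseudocount of 1 left 5 higher and 4 lower with HFD and 12 higher and 2 lower in db, so the calls rest largely on low levels. A minimum of 0.5 FPKM left 21 higher and 17 lower with HFD of 338 transcripts, and raised r of the pairs in db to 0.58. With the nearest coding gene that does not overlap, r over all lncRNA genes with a ratio was 0.11 with HFD and 0.092 in db. Restricting to entries in the run of their own strand moved none of these values past the limits, which does not show that reads were separated by strand. Among the ratios of named genes, 39 of 107 moved by over 0.5 with a pseudocount of 1, 8 with 0.01 and 2 with sums per gene, and no called ratio changed sign.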
